A study of Mus musculus with 7 samples.

Results

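Expression of 10 interferon-induced GTPase genes was followed in EMT6 mouse breast tumors that had become resistant to PD-L1 inhibition. They were the guanylate-binding proteins (GBPs) Gbp2, Gbp3, Gbp5 and Gbp7 and the immunity-related GTPases (IRGs) Iigp1, Igtp, Irgm1, Irgm2, Tgtp1 and Tgtp2. The genes were selected by symbol, with measured values of these same tumors already known, out of 53465 gene identifiers in the count table. Each of the 10 matched 1 identifier, and all 10 passed the filter on low counts. Because the choice drew on the contrast between resistant and control tumors, their values in that contrast are given as a description, and counts of calls from fits over all genes are no test of the members. Those counts stand beside the share of all genes, and nothing is read from them.

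Both families are induced by interferon gamma and, more weakly, by type I interferon, in part through the interferon regulatory factors (IRFs). GBPs assemble on the vacuoles of intracellular microbes and on cytosolic bacteria, and they promote inflammasome activation. IRGs divide into effectors, which load onto and disrupt the vacuoles of parasites and bacteria (Iigp1, Tgtp1 and Tgtp2), and regulators, which sit on host membranes and keep the effectors in the inactive state (Irgm1, Irgm2 and Igtp). In tumor tissue their transcripts can come from carcinoma cells, macrophages, fibroblasts, endothelium and lymphocytes, all of which respond to interferon.

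EMT6 is a mammary carcinoma cell line of the BALB/c mouse, and female mice aged 6 to 8 weeks received 500000 cells each, injected into the mammary fat pad. The EMT6-P group held 3 libraries of primary tumor tissue grown under an IgG isotype control antibody, and the EMT6-PTR group held 3 libraries of primary tumor tissue of the resistant variant grown under αPD-L1 antibody, which the labels write as PDR. Both antibodies were given at 250 μg per mouse every 3 days, from day 1 until the institutional endpoint, so that every animal carried a tumor and received an antibody. A metastasis of the resistant variant, from an animal under αPD-L1, gave 1 further library. Whole tissue was sequenced, so host cells contribute to every value, and fewer cells of a type cannot be told apart from less RNA per cell. Nothing in the labels says that the replicates came from separate animals, and the study describes its replicates as technical where it does not say otherwise. The 3 libraries of a group are called tumors here for short. Standard errors and p-values rest only on the spread between these libraries, with information shared across genes by the fit. Both variants were derived by the study from selected primary tumors grown on in culture with the antibody.

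Libraries held between 20430110 and 25213472 estimated counts. Several stood apart from the others. The gene CT010467.1 took 13.85% of all counts in EMT6-PTR 2, whereas its share was 0.443% in EMT6-PTR 1, 0.508% in EMT6-PTR 3 and 1.27% to 1.35% in EMT6-P. EMT6-PTR 1 was rich in skeletal muscle transcripts, with a summed level of 3778 CPM (counts normalized to library size) over 6 genes, where EMT6-P 1 to 3 held 636, 11.5 and 361. EMT6-PTR 3 had a summed CPM of 612 over 6 epithelial genes, against 2385 to 2719 in the other 5 primary tumors. Krt8, Krt18, Krt14 and Cdh1 lay below every EMT6-P tumor there, whereas Epcam (8.83 CPM) and Krt5 (1.13) did not. Its 6 fibroblast genes summed to 13240.0, against 3052 to 5238. The metastasis, labelled as breast tumor tissue, held 7 lung genes at a summed CPM of 8104 against at most 27.1 elsewhere, of which the club cell secretoglobin Scgb1a1 alone gave 2957. Its 6 neutrophil genes summed to 2931, against at most 58.6 in the primary tumors. Its 6 epithelial genes summed to 1162, although Epcam and Cdh1 were at their highest of the 7 libraries there. The part of these differences in the values of the GTPases was not tested, beyond leaving out single tumors where stated.

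The members lie on 3 mouse chromosomes (GRCm38 assembly, GENCODE M21 annotation). The GBPs are neighbours on chromosome 3: Gbp5 at chr3:142493978-142522344, Gbp7 at chr3:142530342-142550149, Gbp3 at chr3:142560026-142573209 and Gbp2 at chr3:142620602-142638008, all on the plus strand. On chromosome 11, Irgm1 (chr11:48861968-48871683), Tgtp1 (chr11:48985327-48994172) and Tgtp2 (chr11:49057194-49064206) follow each other on the minus strand. Igtp (chr11:58199556-58207591) and Irgm2 (chr11:58199618-58222782) are annotated on the plus strand further along, and they overlap on that strand, so reads from the shared stretch could be assigned to either. Iigp1 is on chromosome 18. Tgtp1 and Tgtp2 are near-identical copies, with 1241 of 1245 coding bases the same (99.7%), and RSEM divides the reads they share by estimation. The next closest pair by coding bases was Gbp3 and Gbp7, at 76.6%, and the IRG pair Igtp and Irgm2 reached 68.0%. Counts of Iigp1, Irgm1 and Gbp5 were whole numbers in every library, whereas those of Gbp7 were fractional in 6 and those of the other members in all 7. The values of Tgtp1 against Tgtp2 and of Igtp against Irgm2 are therefore uncertain as a split, and sums of their CPM are given for the tumors and the metastasis.

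Promoter sequence is shown because the letters that interferon-activated factors bind recurred before the start sites of the members, in several arrangements. The RefSeq promoter table (GRCm38.p6) held 9 of the 10 members. In the 250 bases before each start, 2 patterns were searched on both strands. The letters of an interferon-stimulated response element (ISRE), which IRFs recognise, were taken as GAAA, any 2 bases, GAAA. Those of a gamma-activated site (GAS), a promoter element of interferon gamma responses, were taken as TTCNNNGAA. The 9 members had 10 windows, since Gbp3 had 2 start sites. The ISRE letters were present in 9 of the 10, 1 for each member, against 2.98% of the 32851 windows in the table, and the second start of Gbp3 had neither pattern. The GAS letters were present in 6 of the 10, against 7.02%, and those 6 held both, against 0.332% of all windows. Of 8 other genes of the families in the table, 3 had the ISRE letters and 2 the GAS letters. Such a match is a description of letters, not evidence of binding, and the share of windows includes genes of every kind.

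In 4 IRGs the GAS letters stood 2 bases upstream of the ISRE letters. That arrangement was taken from the sequences of these members and then searched on the strand of the gene only. It was found in 5 of the 32851 windows (0.0152%), before Igtp, Irgm2, Tgtp1, Tgtp2 and Gm12185, another gene of the IRG family. The share is therefore a description and no test. The matched stretches with 10 bases on either side are printed 5′ to 3′ on the strand of the gene, first the GAS letters and then the ISRE letters in capitals.
Igtp, chr11:58199501-58199541, plus strand: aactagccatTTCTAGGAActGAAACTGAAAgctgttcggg
Irgm2, chr11:58214892-58214932, plus strand: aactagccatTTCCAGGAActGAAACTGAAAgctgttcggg
Tgtp1, chr11:48992304-48992344, minus strand: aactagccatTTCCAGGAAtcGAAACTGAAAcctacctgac
Tgtp2, chr11:49064263-49064303, minus strand: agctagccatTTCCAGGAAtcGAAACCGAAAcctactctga
Igtp and Irgm2 shared 40 of these 41 bases, Tgtp1 and Tgtp2 shared 34, and the pairs across shared 31 or 32. The stretch of Igtp touched no annotated feature. That of Irgm2 lay within an Irgm2 transcript, that of Tgtp1 within transcripts of Tgtp1 and of Olfr56, and that of Tgtp2 within a transcript of Olfr56, in each case outside exons.

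The GBPs carried the same letters in other arrangements, shown for Gbp3 and Gbp7 for contrast. Here the ISRE letters read on the opposite strand.
Gbp3, chr3:142559989-142560024, plus strand: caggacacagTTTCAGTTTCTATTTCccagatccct
Gbp7, chr3:142530220-142530302, plus strand: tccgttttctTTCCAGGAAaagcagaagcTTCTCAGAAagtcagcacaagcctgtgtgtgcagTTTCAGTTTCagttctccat
In Gbp3 the capitals hold 2 overlapping ISRE matches, and no GAS letters lay in that window. In Gbp7 they hold 2 GAS matches followed by 1 ISRE match. Gbp2 had 1 ISRE match and Irgm1 had 2 overlapping ones, both without GAS letters, and Gbp5 had 1 ISRE match between 2 GAS matches. Stretches around the matches of Gbp2, Gbp5 and Irgm1 overlapped annotated GENCODE exons of the same genes, and those of Gbp3 and Gbp7 touched no annotated feature. In 8 of the 9 members an ISRE match began within 77 bases of the start site, and that of Gbp5 began 165 bases before it.

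**Figure D1:**
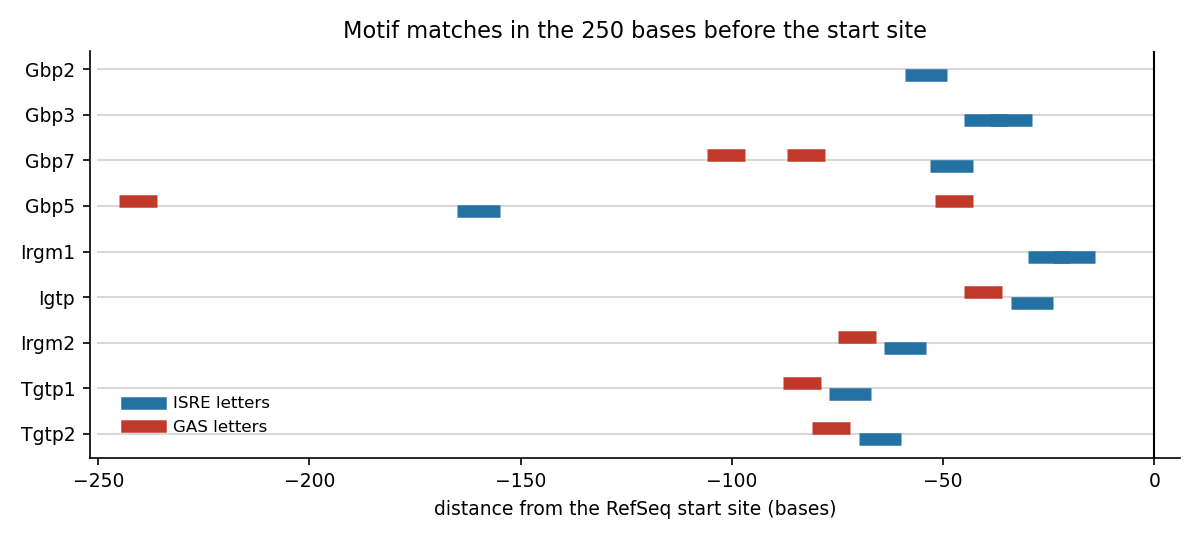
Position of each match to the ISRE letters (blue) and to the GAS letters (red) in the 250 bases before the RefSeq start site of 9 members; the x axis is the distance from the start site in bases. Igtp, Irgm2, Tgtp1 and Tgtp2 show a GAS match directly before an ISRE match, which Gbp2, Gbp3 and Irgm1 do not.

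Levels are compared between genes as CPM per kilobase of exon, on the upper-quartile scale. In the EMT6-P tumors Gbp2 was the highest member, at 173 ± 22.7 CPM per kilobase (SD, n = 3), followed by Gbp3 at 54.7 ± 8.42, and the ranges of these genes did not overlap with each other or with the next. Gbp7 (29.9 ± 3.10), Igtp (24.5 ± 5.71) and Tgtp2 (17.5 ± 3.41) came next, with ranges that overlapped from 1 to the next. Below them stood Irgm1 (12.0 ± 2.04), Tgtp1 (10.8 ± 3.27), Irgm2 (8.99 ± 3.00), Iigp1 (7.74 ± 2.52) and Gbp5 (5.33 ± 0.826). Each of these 5 overlapped with the next in range. Within each EMT6-P tumor, Tgtp2 stayed above Irgm1 and Irgm1 above Tgtp1, while Irgm2, Iigp1 and Gbp5 changed places between these tumors. The transcripts of the 10 members made up between 0.1005% and 0.1263% of all counts in EMT6-P. In that group Gbp2 alone gave 38.2% to 42.5% of the members' counts and the 6 IRGs 20.5% to 28.3%. In EMT6-PTR 1 the IRG share was 23.5%, but it was 44.2% in EMT6-PTR 2, 41.5% in EMT6-PTR 3 and 53.2% in the metastasis.

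Against EMT6-P, the resistant tumors held more IRG transcript in EMT6-PTR 2 and EMT6-PTR 3 and not in EMT6-PTR 1. The more abundant GBPs, Gbp2, Gbp3 and Gbp7, lay between 0.692 and 1.45 times their control means in the resistant tumors. Each of them exceeded every control in EMT6-PTR 2. Over the 3 tumors of each group the log2 fold change lay above 0 for 9 of the 10 members, where 52.3% of the 15645 genes tested did. Its median was 0.69 over the members, 0.87 over the 6 IRGs and 0.21 over the 4 GBPs, beside 0.03 over all genes. None of the members was called at an adjusted p under 0.05 by edgeR's quasi-likelihood test, which called 0% of all genes, nor by DESeq2, which called 1.01% of genes as higher, nor by limma-voom. At an unadjusted p under 0.05, edgeR listed 1 member (Tgtp1) as higher, where it listed 5.84% of all genes, and 0 as lower, where it listed 5.57%. By the same measure DESeq2 listed 2 members as higher, where it listed 8.04% of all genes, and limma-voom 0, where it listed 4.21%. The groups overlapped for each of the 10 members, and 9.47% of all genes had every EMT6-PTR tumor above every EMT6-P tumor.

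**Figure D2:**
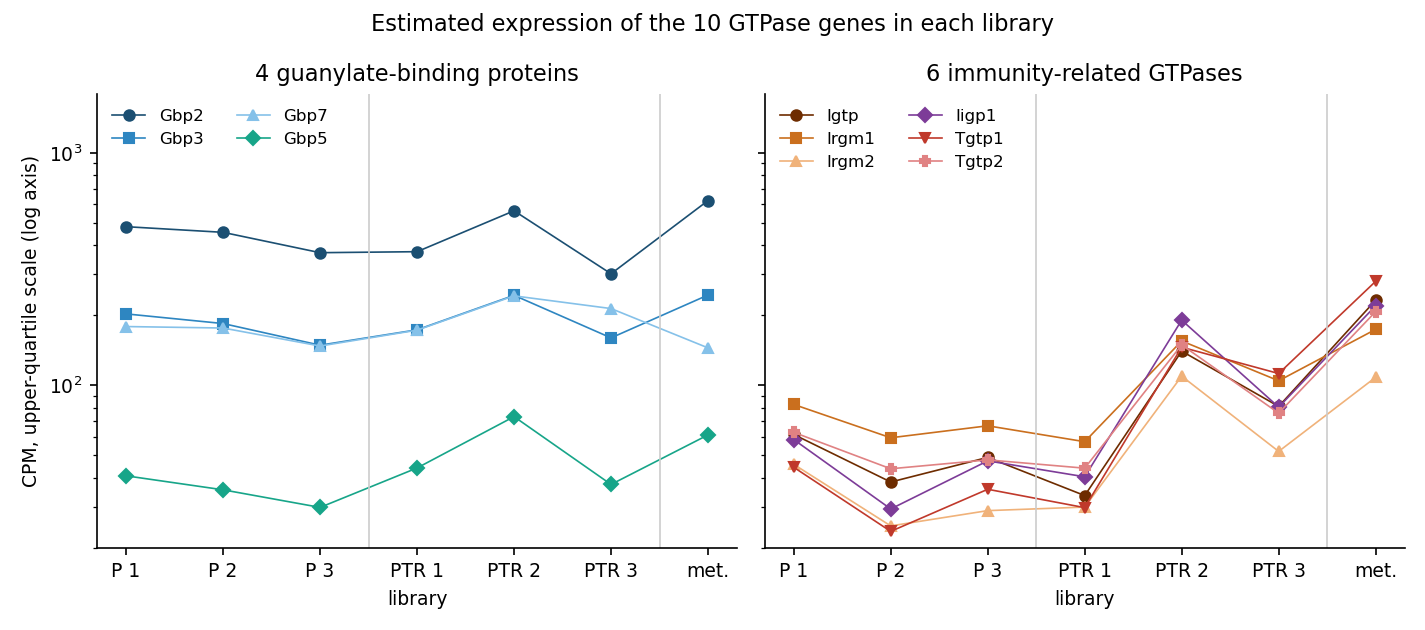
CPM on the upper-quartile scale (log axis) of each member in the 3 EMT6-P tumors, the 3 EMT6-PTR tumors and the metastasis, with GBPs on the left and IRGs on the right; lines join the values of 1 gene and replicates have no order. The 6 IRGs move as a bundle, low in EMT6-P and EMT6-PTR 1 and high in EMT6-PTR 2, EMT6-PTR 3 and the metastasis, whereas Gbp2, Gbp3 and Gbp7 stay between 144.9 and 623 CPM throughout.

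Among the effector IRGs, Tgtp1 had the largest fold change of the members as RSEM divided the reads, an order that did not hold with Tgtp1 and Tgtp2 summed. Its CPM was 44.4, 23.5 and 35.7 in EMT6-P 1 to 3, and 29.8, 145.9 and 112 in EMT6-PTR 1 to 3. EMT6-PTR 1 sat among the control tumors, and the other resistant tumors lay far above every one of them, at 4.22 and 3.25 times the control mean. The log2 fold change was 1.47 (SE 0.56), and leaving out EMT6-PTR 2 gave 1.04. Tgtp2, its near-identical copy, had 62.8, 43.8 and 47.8 in EMT6-P and 44.0, 149 and 75.9 in EMT6-PTR. The order of the tumors was the same, but EMT6-PTR 3 stood out less, and the log2 fold change was 0.80 (SE 0.43), or 0.22 without EMT6-PTR 2. The ratio of Tgtp1 to Tgtp2 counts was 0.708, 0.538 and 0.748 in EMT6-P and 0.676 in EMT6-PTR 1, but 0.977 in EMT6-PTR 2, 1.48 in EMT6-PTR 3 and 1.35 in the metastasis. With both copies summed, CPM was 107, 67.3 and 83.5 in EMT6-P and 73.8, 295 and 188 in EMT6-PTR, and the log2 fold change was 1.11 (SE 0.48), below that of Iigp1.

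Iigp1, whose protein is the best studied effector at the Toxoplasma vacuole, had CPM values of 58.4, 29.4 and 47.3 in EMT6-P and 40.4, 190.7 and 80.6 in EMT6-PTR. EMT6-PTR 2 held 4.23 times the mean of the control tumors and EMT6-PTR 3 held 1.79 times, whereas EMT6-PTR 1 held 0.897 times. The spread over the 6 primary tumors, 6.49-fold from the lowest to the highest, was the widest of the members. The log2 fold change was 1.20 (SE 0.57), and without EMT6-PTR 2 it was 0.43.

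The regulators had the same order of resistant tumors as the effectors, with EMT6-PTR 2 above EMT6-PTR 3 above EMT6-PTR 1. Irgm1, which also acts in autophagy and mitochondrial quality control, had CPM values of 82.7, 59.5 and 67.0 in EMT6-P and 57.2, 155 and 105 in EMT6-PTR, with a log2 fold change of 0.60 (SE 0.35). Its level in EMT6-PTR 1 was the lowest of the 6 tumors. Irgm2 had 45.7, 24.9 and 28.9 in EMT6-P and 29.9, 109 and 52.0 in EMT6-PTR, with a log2 fold change of 0.94 (SE 0.49). Igtp, also a regulator, had 61.5, 38.4 and 49.0 in EMT6-P and 33.6, 140.3 and 81.2 in EMT6-PTR, with a log2 fold change of 0.77 (SE 0.49). EMT6-PTR 1 was again the lowest tumor for Igtp, below all 3 controls. Igtp and Irgm2, whose annotated loci overlap, summed to 107, 63.2 and 77.9 CPM in EMT6-P and to 63.5, 249.8 and 133 in EMT6-PTR. Without EMT6-PTR 2, the log2 fold changes of the regulators were 0.22 for Irgm1, 0.31 for Irgm2 and 0.21 for Igtp.

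The GBPs differed among themselves. Gbp2, the most abundant member, had CPM values of 481, 455 and 372 in EMT6-P and 376, 563 and 302 in EMT6-PTR, with a log2 fold change of -0.08 (SE 0.25). The resistant group held both its highest and its lowest value. Gbp3 had 203, 184 and 149 in EMT6-P and 173, 244 and 160.0 in EMT6-PTR, with a log2 fold change of 0.11 (SE 0.21). Only EMT6-PTR 2 exceeded the controls for these GBPs, and leaving out EMT6-PTR 3 turned Gbp2 to 0.10 as leaving out EMT6-PTR 2 turned Gbp3 to -0.09. Gbp7, which takes part in vacuole and oxidative defence, had 179, 176 and 148 in EMT6-P and 173, 243 and 214 in EMT6-PTR. EMT6-PTR 2 and EMT6-PTR 3 both exceeded the controls, and the log2 fold change was 0.32 (SE 0.17). Gbp5, a promoter of NLRP3 inflammasome assembly and the member with the lowest mean level per kilobase in EMT6-P, had 40.8, 35.5 and 29.9 in EMT6-P and 44.1, 73.3 and 37.5 in EMT6-PTR. It had the largest log2 fold change of the 4 GBP members, 0.54 (SE 0.28), and the 1 member for which EMT6-PTR 1 exceeded every control tumor. Without EMT6-PTR 2 the values were 0.21 for Gbp5 and 0.21 for Gbp7.

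Read tumor by tumor, EMT6-PTR 2 exceeded all 3 control tumors for 10 of the 10 members, where 34.3% of all genes did. Its median difference from the mean log2 CPM of EMT6-P was 1.66 over the IRGs and 0.50 over the GBPs. EMT6-PTR 3 exceeded all controls for 7 members, including 6 of the 6 IRGs, where 39.9% of all genes did. Its median difference was 0.72 over the IRGs and -0.03 over the GBPs, of which Gbp7 lay above and Gbp2 below every control. EMT6-PTR 1 exceeded all controls for 1 member, where 31.9% of all genes did, and lay below all of them for 2, Igtp and Irgm1, where 33.1% did. The median difference there was -0.19 over the IRGs and 0.01 over the GBPs.

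**Figure D3:**
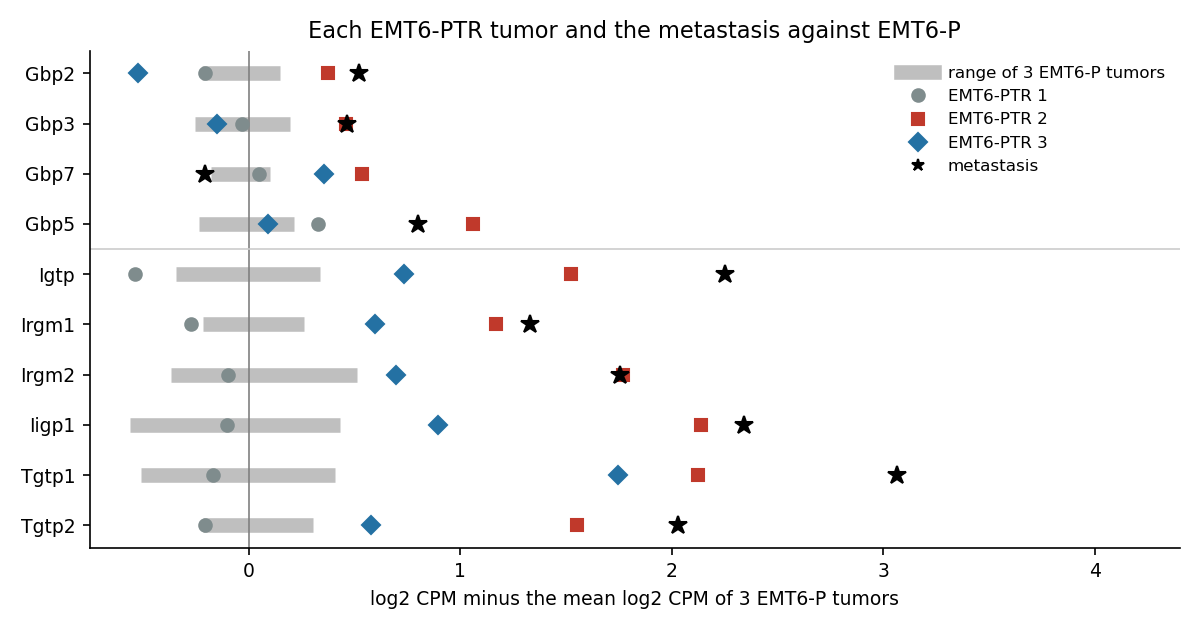
Difference between the log2 CPM of each EMT6-PTR tumor or the metastasis and the mean of the 3 EMT6-P tumors, for each member; the grey bar spans the EMT6-P tumors. For the 6 IRGs, EMT6-PTR 3 and EMT6-PTR 2 lie to the right of every bar and EMT6-PTR 1 within or left of it, and the metastasis reaches 3.06 for Tgtp1.

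The description of the group therefore depended on which resistant tumors entered it. Without EMT6-PTR 2, in which CT010467.1 took 13.85% of counts, the members' median log2 fold change was 0.21 and 8 of the 10 lay above 0. Without EMT6-PTR 1, the muscle-rich tumor, the median was 1.01 and none was called. In that fit 7 members were higher at an unadjusted p under 0.05, where 9.55% of all genes were. Without EMT6-PTR 3, the keratin-poor tumor, the median was 0.76 and all 10 lay above 0.

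**Figure D4:**
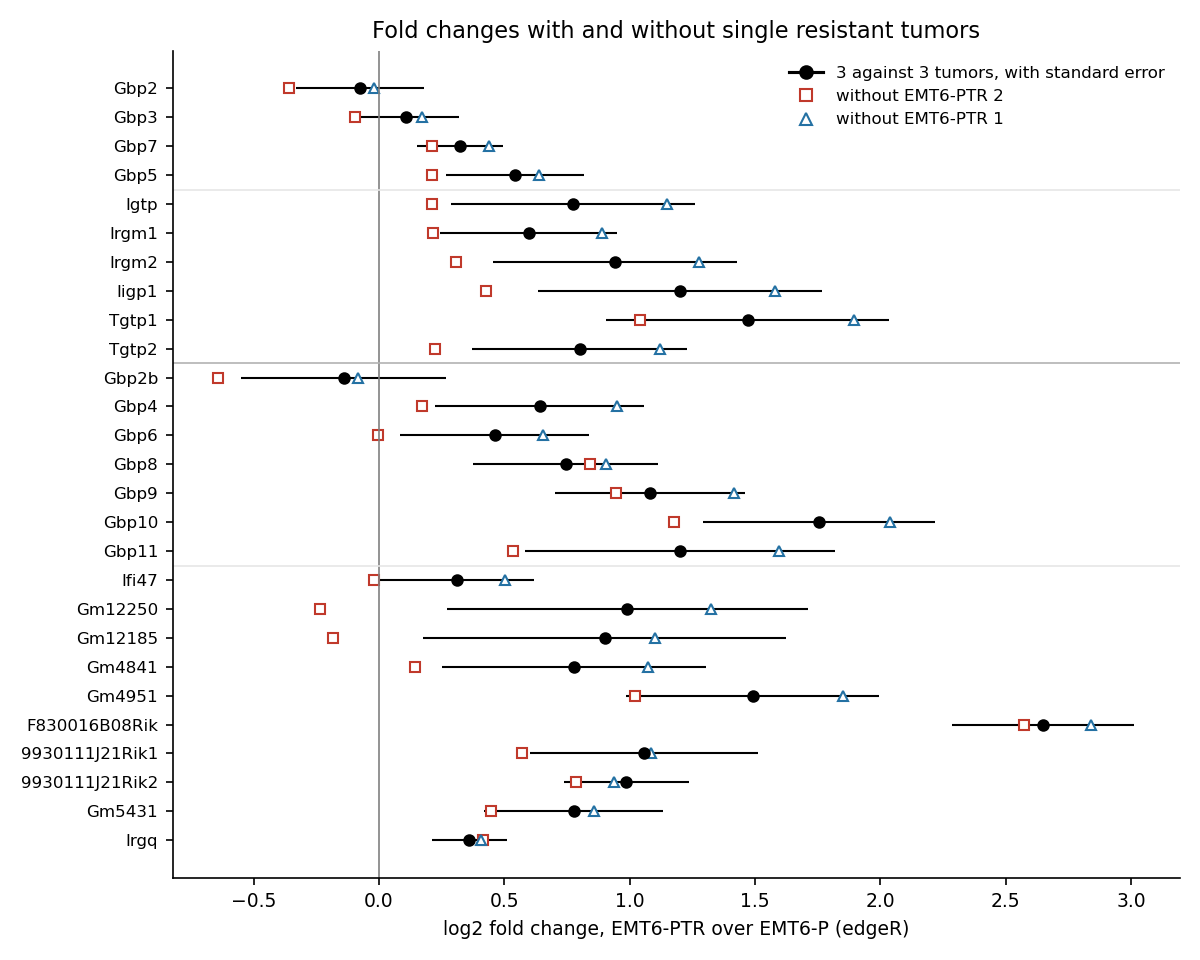
Log2 fold change of EMT6-PTR over EMT6-P from edgeR, with its standard error (black, 3 against 3 tumors), for the members (above the darker line) and for the other GBP and IRG genes tested (below it); squares and triangles give the value without EMT6-PTR 2 and without EMT6-PTR 1. For the 6 IRG members the square lies left of the circle and the triangle right of it. F830016B08Rik, a gene of low counts, stays between 2.51 and 2.84 in each fit that left out a tumor.

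The 6 IRGs varied together across libraries, and the GBPs did so less. Over the 7 libraries Pearson's r of log2 CPM lay between 0.95 and 0.99 for the 15 pairs of IRGs, and over the 6 primary tumors between 0.93 and 0.99. Among the 6 pairs of GBPs it ranged from -0.10 to 0.92, and among the 24 pairs of a GBP with an IRG from 0.11 to 0.87. The low end in both came from Gbp7, which was lowest in the metastasis, at 144.9 CPM. Over the 6 primary tumors alone the GBP pairs ranged from 0.30 to 0.89, but the pairs of a GBP with an IRG still ran from 0.09 to 0.88. These libraries share cell makeup and fall into 3 groups, so the coefficients describe them and carry no test. The families also differed within the control group, where all 6 IRGs were highest in EMT6-P 1 and lowest in EMT6-P 2, but all 4 GBPs were highest in EMT6-P 1 and lowest in EMT6-P 3.

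Other genes of both families were listed whole. All 7 further GBP genes were tested, 6 of them had a positive log2 fold change, where 52.3% of all genes did, and the median was 0.74. Of 12 further IRG genes, 10 were tested and 10 lay above 0, with a median of 0.94. None of the 17 was called by edgeR (smallest adjusted p = 0.421), and 5 were higher at an unadjusted p under 0.05, where 5.84% of all genes were. DESeq2 called 3 of them, Gbp10, F830016B08Rik and 9930111J21Rik2, as higher, where it called 1.01% of all genes. Without EMT6-PTR 2, 5 of 7 and 7 of 10 lay above 0, with medians of 0.53 and 0.43.

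Gbp2b, an abundant relative of Gbp2, resembled it, with CPM values of 367, 277 and 258 in EMT6-P and 248, 435 and 136 in EMT6-PTR. Gbp4 resembled the IRGs instead, with 80.7, 45.4 and 63.2 against 50.2, 154 and 91.7. Gbp10 was rarer but did not overlap between groups: it had 2.09, 1.73 and 2.49 in EMT6-P and 3.99, 11.9 and 5.51 in EMT6-PTR, with a log2 fold change of 1.76 (SE 0.46, adjusted p = 0.421 in edgeR). Gbp8 also lay higher in every resistant tumor, with a log2 fold change of 0.74 (SE 0.37). Its value was 0.44 without EMT6-PTR 3 and 0.48 without EMT6-P 2. Gbp6, Gbp9 and Gbp11 had log2 fold changes of 0.46, 1.08 and 1.20. Without EMT6-PTR 2 these were -0.0037, 0.95 and 0.53, and that of Gbp4 moved from 0.64 to 0.17.

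Among the IRGs, F830016B08Rik had the largest separation, from a low level. It held 346 estimated counts over the 7 libraries and did not pass the alternative filter of at least 10 counts in every tumor. Its CPM was 0.584, 0.468 and 0.423 in EMT6-P and 2.21, 3.46 and 3.67 in EMT6-PTR, and its log2 fold change of 2.65 (SE 0.36) had an adjusted p of 0.421 in edgeR. Unlike the IRG members it exceeded the controls in EMT6-PTR 1 as well. 9930111J21Rik2, whose start site lies near Tgtp2 on chromosome 11, had 21.7, 26.6 and 24.1 in EMT6-P and 50.7, 60.8 and 32.1 in EMT6-PTR, with a log2 fold change of 0.99 (SE 0.25). Gm5431 and the divergent family member Irgq were also higher in every resistant tumor, with log2 fold changes of 0.78 (SE 0.36) and 0.36 (SE 0.15). Ifi47, an abundant effector, overlapped between groups, with 50.3, 29.9 and 39.3 against 34.9, 70.0 and 43.3. Gm4951 followed the IRG members, with 6.43, 3.46 and 3.95 in EMT6-P and 5.51, 20.3 and 13.2 in EMT6-PTR. Gm4841 and 9930111J21Rik1 had log2 fold changes of 0.78 (SE 0.53) and 1.06 (SE 0.45), which were 0.14 and 0.57 without EMT6-PTR 2, and that of Gm5431 was then 0.45, while Gm12187 and Irgc1 did not pass the filter. Gm12250 and Gm12185, the other IRG with the GAS and ISRE letters 2 bases apart, were highest in EMT6-PTR 2 among the 7 libraries, with log2 fold changes of 0.99 (SE 0.72) and 0.90 (SE 0.72) that were -0.24 and -0.18 without that tumor. Gm12185 had 1.85, 2.06 and 1.65 in EMT6-P and 2.39, 7.21 and 0.860 in EMT6-PTR. Reads of such paralogs may be divided between near-identical copies. Of 4 interferon-induced GTPases of other families, 3 were tested (Mx1, Mx2 and Gm4070), with a median log2 fold change of 0.83, or 0.16 without EMT6-PTR 2.

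The ligands that induce these genes were close to the limit of detection. Of 19 interferon genes, none passed the filter and 15 had 0 counts in all 6 primary tumors, where a count of 0 allows up to 3 counts in a library. Ifng was found at 0.292, 0.281 and 0.188 CPM in EMT6-P, at 0.174, 0.447 and 0.0391 in EMT6-PTR and at 0.354 in the metastasis. The highest value was that of EMT6-PTR 2 and the lowest that of EMT6-PTR 3, a tumor with high IRG levels. Ifnb1 lay at or below 0.279 CPM in every library. Neither ligand held enough counts for a difference to be tested at this depth. Of 6 genes for inducers of interferon gamma, 4 were tested and 1 lay above 0, and the most abundant, Il18, had 14.6, 9.83 and 19.6 in EMT6-P and 8.34, 9.66 and 16.8 in EMT6-PTR.

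Over the primary tumors the receptors did not follow the IRGs. Ifngr1, the ligand-binding chain for interferon gamma, had 75.8, 74.0 and 73.6 CPM in EMT6-P and 82.4, 64.7 and 121 in EMT6-PTR. Ifnar1 and Ifnar2, the chains of the type I receptor, had log2 fold changes of 0.00 (SE 0.17) and 0.06 (SE 0.11), and Ifngr2 one of -0.10 (SE 0.28). Ifnlr1 did not pass the filter. In the metastasis 3 of the 5 receptor genes had their highest level of the 7 libraries, and Ifnar1 and Ifngr2 did not. These were Ifngr1 at 149 CPM, Ifnar2 at 84.2 and Ifnlr1 at 9.08. Of 13 kinases and transcription factors, 12 had a positive log2 fold change, the median was 0.12 (0.05 without EMT6-PTR 2 and 0.23 without EMT6-PTR 3), and none was called. Irf1, which binds ISRE letters and is itself induced by interferon gamma, had 105, 82.7 and 99.5 CPM in EMT6-P and 95.5, 135 and 58.4 in EMT6-PTR. Among the primary tumors it was highest in EMT6-PTR 2, as were the IRGs, but lowest in EMT6-PTR 3, where the 6 IRGs exceeded every control. Stat2 and Irf7 differed from it in EMT6-PTR 3, with Stat2 at 57.4, 36.5 and 38.1 against 49.0, 112 and 58.4, and Irf7 at 64.3, 71.7 and 37.1 against 55.0, 152 and 84.6.

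Targets of interferon outside the GBP and IRG families were counted in the same way, and Mx1 and Mx2, named above, were again among the type I targets. The interferon gamma list holds Cxcl9 and Cxcl10, which the study counts among type I interferon-regulated genes. It also holds H2-Aa, H2-Ab1, H2-Eb1 and Cd74 of MHC class II, and the part of cell makeup in its values was not tested. Of 14 genes known mostly as type I targets, 14 exceeded all controls in EMT6-PTR 2, 4 in EMT6-PTR 3 and 0 in EMT6-PTR 1, where 34.3%, 39.9% and 31.9% of all genes did, and the median log2 fold change was 0.71, or -0.01 without EMT6-PTR 2. Isg15, a ubiquitin-like modifier, had 48.2, 38.1 and 32.0 in EMT6-P and 24.5, 87.1 and 18.2 in EMT6-PTR. Ifi44 differed from it in EMT6-PTR 3, with 51.3, 47.6 and 38.6 against 42.7, 146 and 90.5. Of 13 tested targets known mostly for interferon gamma, 12 exceeded all controls in EMT6-PTR 2, 1 in EMT6-PTR 3 and 3 in EMT6-PTR 1, beside the same shares of all genes, with a median log2 fold change of 0.13, or -0.09 without EMT6-PTR 2 and 0.34 without EMT6-PTR 3. Cd74, the invariant chain of MHC class II and the most abundant of them, had 1037, 681 and 1132 in EMT6-P and 1149, 1334 and 632 in EMT6-PTR. Psmb8, an immunoproteasome subunit, had 378, 338 and 324 against 252, 326 and 201. The chemokine Cxcl9, named here after its values were seen, had 27.9, 17.6 and 28.3 in EMT6-P and 19.2, 58.7 and 4.92 in EMT6-PTR. In EMT6-PTR 3, Cxcl9, Cd74, Psmb8 and Irf1 were at their lowest among the primary tumors while the IRGs were not. Some but not all of the other interferon gamma targets were also lowest there. None of the genes in either list was called by edgeR.

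Partners of the GTPases showed no shared direction. Of 17 genes for vacuole loading and inflammasomes, 6 had a log2 fold change above 0, the median was -0.04 and none was called. Arhgdia did not overlap between groups, with 924, 946 and 865 CPM in EMT6-P and 701, 656 and 481 in EMT6-PTR (log2 fold change -0.57, SE 0.18, adjusted p = 0.424 in edgeR). Gabarap and Gabarapl2, ubiquitin-like proteins of the autophagy machinery, were likewise lower in every resistant tumor, with log2 fold changes of -0.26 (SE 0.17) and -0.39 (SE 0.14). These 3 of 17 stand beside 11.8% of all genes whose EMT6-PTR values all lay below EMT6-P. Aim2, a sensor of cytosolic DNA whose activation GBPs promote, had 42.1, 36.6 and 46.4 in EMT6-P and 43.5, 76.6 and 106 in EMT6-PTR, with a log2 fold change of 0.85 (SE 0.32). Of 6 negative regulators, 3 lay above 0 with a median of 0.00, and Socs3, the most abundant, had a log2 fold change of -0.20 (SE 0.32). Without EMT6-PTR 2, 1 of the 6 lay above 0 with a median of -0.27, and without EMT6-PTR 3, 5 did with a median of 0.10.

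Markers of immune cells were set beside the GTPases, and their part in the result was not tested. The 10 T cell markers, of which Lck was the most abundant and none was at 0 in all tumors, summed to 13.2, 7.77 and 10.5 CPM in EMT6-P, to 9.94, 30.2 and 10.8 in EMT6-PTR and to 47.4 in the metastasis. They were thus higher in EMT6-PTR 2 and the metastasis, as the IRGs were, but not in EMT6-PTR 3, where 2 of the 9 tested exceeded all controls, beside 39.9% of all genes. For comparison the 6 IRGs summed to 355.5, 219 and 276 in EMT6-P, to 235, 891 and 507 in EMT6-PTR and to 1222 in the metastasis. The 9 genes of NK and cytotoxic cells summed to 7.16, 4.68 and 6.20 in EMT6-P and to 7.90, 14.1 and 2.42 in EMT6-PTR. The 9 macrophage genes, led by C1qa, summed to 1955, 1634 and 1821 in EMT6-P and to 1932, 1709 and 1538 in EMT6-PTR. Their median difference from the mean log2 CPM of EMT6-P was 0.04, -0.05 and -0.25 in EMT6-PTR 1 to 3. In EMT6-PTR 3 they did not move together, from Itgam at 42.3 CPM against 104 to 132 in EMT6-P to C1qc at 405 against 307 to 379, of which Itgam is named after its values were seen. The general leukocyte genes Ptprc, Laptm5 and Coro1a summed to 394 to 442 in EMT6-P and to 498, 418 and 267 in EMT6-PTR, lowest in EMT6-PTR 3. The 8 dendritic cell genes summed to 32.5, 40.2 and 44.6 in EMT6-P and to 42.2, 84.3 and 18.5 in EMT6-PTR. The low sum in EMT6-PTR 3 came from Itgax, the most abundant, at 5.31 CPM against 22.55 to 34.2 in EMT6-P. Of the 6 tested, 2 exceeded all controls there, beside 39.9% of all genes. The 6 B and plasma cell genes summed to 1.36, 0.749 and 1.41 in EMT6-P against 1.13, 14.4 and 7.15 in EMT6-PTR. Of the 7.15 in EMT6-PTR 3, Cd79a gave 5.78. The 6 endothelial genes lay between 102 and 163 in all 6 primary tumors and the 5 adipocyte genes between 9.78 and 30.0.

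**Figure D5:**
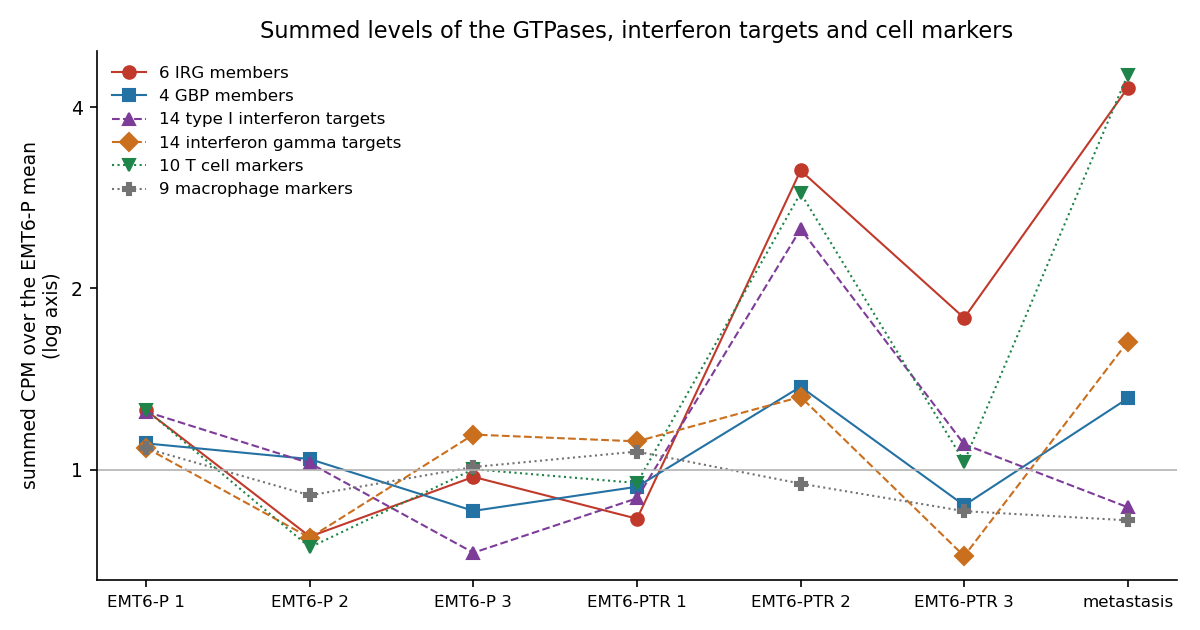
Summed CPM of the IRG members, the GBP members, the interferon targets and the T cell and macrophage markers in each library, divided by the mean of the 3 EMT6-P tumors (log axis). In EMT6-PTR 3 the IRG sum of 507 CPM lies above all 3 control tumors while the T cell sum of 10.8 lies within them, and in the metastasis the IRG and T cell sums are both the highest of the 7 libraries.

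In the metastasis, a single library without a replicate, 5 of the 6 IRGs were at the highest level of the 7 libraries, and Irgm2, at 108 CPM, was level with EMT6-PTR 2. Tgtp1 had 280.1 CPM there, Igtp 232, Iigp1 220, Tgtp2 207.5 and Irgm1 174. Tgtp1 and Tgtp2 summed to 487.6 CPM, and Igtp and Irgm2 to 340.7. On the log2 scale the 6 IRGs lay between 0.83 and 1.83 above the mean of the EMT6-PTR tumors, with a median of 1.38. The values were 1.83 for Tgtp1, 1.68 for Igtp, 1.39 for Tgtp2 and 1.36 for Iigp1, and these 4 members were at least 2-fold above that mean, where 18.7% of 18619 genes were. Against the EMT6-PTR tumors 7 of the 10 members were higher than in any of them, where 29.1% of all genes were, and against EMT6-P 9 of 10 were, where 43.5% of all genes were. Gbp2 and Gbp3 stood at 623 and 245 CPM, also the highest of the 7 libraries but close to EMT6-PTR 2, and Gbp5 at 61.2 below it. Over the 4 GBPs the median difference from the EMT6-PTR mean was 0.34. Gbp7 lay below every primary tumor, by 0.52 from the EMT6-PTR mean on the log2 scale.

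Per kilobase, the order of the members in the metastasis was Gbp2 at 248, Igtp at 115, Tgtp1 at 87.4, Gbp3 at 74.9 and Tgtp2 at 70.6, and Gbp7, the third in EMT6-P, was the ninth. Of the type I targets 4 of 14 exceeded all EMT6-P tumors there, and of the interferon gamma targets 11 of 13 did, where 43.5% of all genes did, and the difference between the lists was not tested. Ifit3 was among the 4, with its highest level of the 7 libraries, and is named after its values were seen. Irf1 was at 162 CPM, and Socs3, an inhibitor induced by IL6-type cytokines, was at 596 against 42.1 to 102 in the primary tumors. Il1b, the inflammasome substrate, was at 1238 CPM against at most 65.5. With the lung and neutrophil genes of that library described above, endothelial genes at a sum of 684 and B cell genes at 47.1, the site of the tissue and the resistant state cannot be told apart in a comparison with EMT6-P, and the levels in the tumor cells and the host cells of the site cannot be told apart in one with EMT6-PTR.

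The genes whose pattern was most like the mean of the members over the 7 libraries, out of 18619 compared, were Lcn2, Gbp4, Lck, Ttll11, 1700012B09Rik, Tkt, Gm43302, Lims2, Gbp11 and Gm4841, with Pearson's r between 0.97 and 0.99. In all, 113 genes other than members had an r of at least 0.9. Lcn2, a secreted protein that binds bacterial siderophores, led with 0.99 and had the widest range: its CPM was 78.3, 17.5 and 24.5 in EMT6-P, 21.7, 383 and 76.1 in EMT6-PTR and 1093 in the metastasis. Lck, a kinase of the T cell receptor pathway, ran from 2.95 to 8.37. Tkt, the pentose phosphate enzyme transketolase, had an r of 0.97 over a narrow range, from 274 to 384.5 CPM. Gbp4, Gbp11 and Gm4841 belong to the families themselves. Of the members, Tgtp2, Irgm2, Irgm1 and Iigp1 lay closest to their own mean, at 0.99 each, and Gbp7 farthest, at 0.25. Over the 6 primary tumors alone Gbp7 had an r of 0.89 and Gbp2 was the farthest, at 0.44.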

How the data were processed

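The 7 libraries were stranded polyA RNA-seq of whole tissue. Per the study's methods and the submitters' processing notes, the authors checked reads with FastQC 0.11.5, aligned them to GRCm38 with STAR 2.6.0a and the GENCODE M16 annotation, and deposited estimated counts per gene from RSEM 1.3.1, neither filtered nor scaled. Gene symbols and positions were matched to GENCODE M21 (53274 of 53465 identifiers). The estimated counts were rounded, genes were filtered with filterByExpr, and EMT6-PTR was compared with EMT6-P (3 against 3) by the quasi-likelihood test of edgeR 4.0.16 in R 4.3.3 with upper-quartile factors, adjusted over 15645 genes by Benjamini-Hochberg at 0.05. The script was tested on simulated data. Standard errors were computed as the absolute log2 fold change over the square root of the F statistic of the quasi-likelihood test. CPM used upper-quartile factors over all 7 libraries, with a prior count of 2 on the log2 scale, and the metastasis (1 library) gave values only. Alternatives were TMM, DESeq2 1.42.0, limma-voom (limma 3.58.1), other filters, the metastasis in the fit, a replicate block, Tgtp1 and Tgtp2 summed, and leaving out each tumor. Genes were named as follows: all members, the tested GBP and IRG genes, ligands, receptors and factors, up to 4 genes of any other list by abundance or p, and the 10 most like the members' mean by Pearson's r. The members and lists were chosen with earlier results of these data known. Promoters came from RefSeq (GRCm38.p6), where the window of Iigp1 was not analysed here. Intervals and limits for a count of 0 cover counting error only. Figures were drawn with matplotlib 3.10.9. Some items are not reported here.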

Additional observations from a re-analysis of the deposited data

How the results depend on the processing

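EdgeR called 0 genes under each alternative scaling, filter or sample set, limma-voom called 0, and DESeq2 called 281. When single tumors were left out, the count was 0 in each of the 6 fits, the members' median log2 fold change ranged from 0.21 (without EMT6-PTR 2) to 1.01 (without EMT6-PTR 1) and the number of members above 0 from 8 to 10. The other alternatives gave a median between 0.54 and 0.71. Gbp2 turned sign in a range of -0.36 to 0.10 and Gbp3 of -0.095 to 0.22 when a tumor was left out. So did Gbp2b (-0.64 to 0.18), Gbp6 (-0.0037 to 0.65), Ifi47 (-0.021 to 0.51), Gm12250 (-0.24 to 1.38) and Gm12185 (-0.18 to 1.36), and the cause was not tested. The sign turned without EMT6-PTR 2 for Gbp3, Gbp6, Ifi47, Gm12250 and Gm12185, without EMT6-PTR 3 for Gbp2 and Gbp2b, without EMT6-P 3 for Gbp3 and without EMT6-P 1 for Gbp2b. The other members kept their direction. DESeq2 alone called Gbp10 (1.78), F830016B08Rik (2.69) and 9930111J21Rik2 (1.01). By Spearman's correlation 6 of the 10 most similar genes were still among the top, with 55 genes tied. With the replicate number as a block, 0 genes were called, the members' median was 0.55, and unadjusted calls numbered 586 higher and 682 lower, against 914 and 872 without it. Nothing in the labels says that the replicate numbers pair tumors, so the main fit did not treat them as pairs. As deviations of log2 CPM from the group mean, same-numbered tumors correlated at 0.26, 0.25 and 0.04. The other pairs of an EMT6-P and an EMT6-PTR tumor lay between -0.29 and 0.10. Whether the numbers mark pairs was not tested. Differences of the metastasis from the EMT6-PTR mean kept their direction under TMM and a prior count of 0.5. The groups held 3 libraries each, which may be technical replicates, and the metastasis 1 library, and the interferon ligands were too few in counts to be tested at this depth.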
